A study of Mus musculus with 10 samples.

Results

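The genes of the Dlg, Shank and Homer families encode the main scaffold proteins beneath excitatory synapses. They were chosen by symbol from the deposited count tables, where all 10 were present among 32531 gene symbols: 4 Dlg genes (Dlg1, Dlg2, Dlg3 and Dlg4), 3 Shank genes (Shank1, Shank2 and Shank3) and 3 Homer genes (Homer1, Homer2 and Homer3).

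RNA was sequenced from the whole striatum of adult mice of the Drd2-TRAP CP101 line, in which the Drd2 promoter drives ribosomal protein L10a joined to EGFP, so that ribosomes of dopamine D2 receptor cells can be pulled down with antibodies to EGFP. Every group carried this transgene, and all mice had given themselves intravenous infusions in short-access sessions, of saline in the control groups and of cocaine in the others. There were 3 immunopurified (IP) libraries after saline (numbers 1, 2 and 4) and 5 after cocaine (numbers 1 to 5), 1 input library (total RNA) after saline and 1 unbound library (RNA left behind by the pulldown) after cocaine. Whether each library stands for 1 animal or for pooled animals is not stated, and p-values therefore cover the spread between these samples and nothing more.

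Dlg proteins are membrane-associated guanylate kinases that hold glutamate receptors, potassium channels and adhesion molecules in place through PDZ domains. Shank proteins lie deeper in the postsynaptic density, where they join the Dlg layer, through Dlgap proteins, to Homer and the actin cytoskeleton. Homer proteins bind Shank, metabotropic glutamate receptors and inositol trisphosphate receptors. The long Homer forms assemble through a coiled coil, whereas a short form of Homer1 that is made after neuronal activity lacks it. Medium spiny neurons (MSNs) of the striatum receive their excitatory input from cortex and thalamus on dendritic spines that carry this scaffold.

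Reads counted to genes ranged from 22975667 to 31631137 in the 8 IP libraries with 18408782 in the input library and 20882691 in unbound RNA. The IP libraries held the defining transcripts of D2 receptor neurons: all 5 D2 MSN markers exceeded their reference (saline input, or cocaine unbound RNA) by at least 2-fold in each IP library. All 5 D1 MSN markers were at least 2-fold lower against input and 4 of 5 against unbound RNA. All 6 astrocyte, 5 oligodendrocyte and 4 pallial glutamatergic neuron markers were lower in both comparisons, as were 3 of 4 GABA interneuron markers, whereas 0 of 3 cholinergic interneuron markers passed in either. Of 4 markers shared by all MSNs, 1 was higher in both, all counted microglia markers (4 and 3) were lower, and 0 of 3 vascular markers reached the level needed to be counted. Input and unbound RNA were both sequenced in lane 1 and the IP libraries in lanes 4, 6 and 7, so lane and fraction cannot be told apart in the ratios below. In bulk libraries, fewer cells of a type and less RNA per cell cannot be told apart either.

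Levels were first compared between the genes in CPM, the counts scaled to a common total of gene reads, divided by exon length in kb. In saline IP, Dlg2 and Dlg4 led with 47 ± 10.3 and 46.6 ± 3.46 CPM per kb (SD, n = 3), and Homer1 followed with 34.8 ± 6.82 and Dlg3 with 26 ± 4.29. Shank3 stood at 12.2 ± 3.08, Dlg1 at 7.67 ± 1.93, Shank1 at 3.24 ± 0.95, Shank2 at 2.75 ± 0.527 and Homer2 at 1.19 ± 0.235 CPM per kb. Homer3 was last with 0.0692 ± 0.00538 CPM per kb, on 6 to 8 reads per library. The libraries of 4 neighbouring pairs overlapped, namely Dlg2 and Dlg4, Homer1 and Dlg3, Shank3 and Dlg1, and Shank1 and Shank2, so their order is not resolved by these samples. The order of the means was the same in cocaine IP, from Dlg2 at 48.2 ± 4.82 (SD, n = 5) to Homer3 at 0.0367 ± 0.0159 CPM per kb. There the overlapping neighbours were Dlg2 and Dlg4, Dlg4 and Homer1, Dlg1 and Shank1, and Shank1 and Shank2. The order also held with the length of the longest coding transcript in place of all exons, a choice made after seeing the data.

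**Figure D1:**
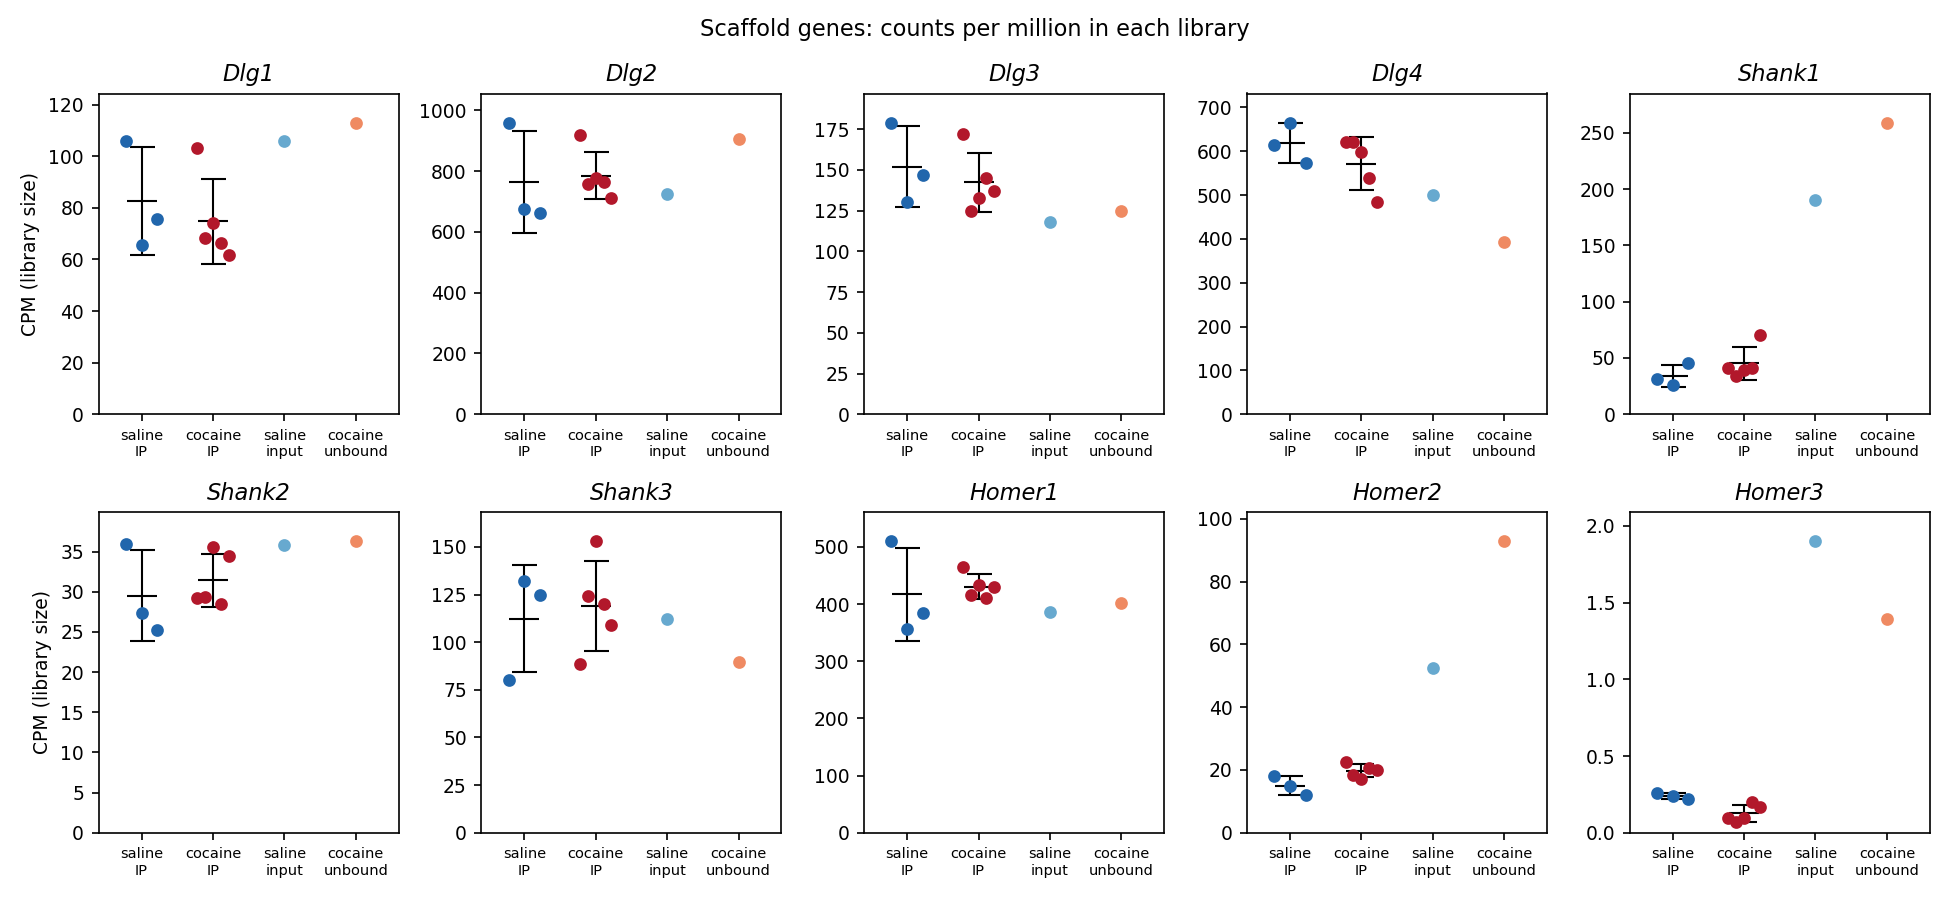
CPM of each scaffold gene in the 10 libraries (vertical axis from 0, its own scale in each panel). Points are libraries, and bars give the mean and SD of the saline IP (n = 3) and cocaine IP (n = 5) groups. Shank1, Homer2 and Homer3 lie below the input and unbound points in all IP libraries, and the IP libraries of the other 7 genes lie within 2-fold of both.

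IP RNA was then set against the reference library of the same treatment as a log2 ratio of scaled CPM, with 1 CPM added to both. A gene was counted when its mean was at least 1 CPM, and it was called when every IP library was at least 2-fold higher, or every one at least 2-fold lower, than the reference. With 1 reference library there is no test. Against saline input, 1.64% of the 12902 counted genes were called higher and 11.6% lower. Of the 10 scaffold genes 9 were counted, and 0 were called higher and 2 lower, Shank1 and Homer2. Against cocaine unbound RNA, 3.78% of 12643 genes were called higher and 9.74% lower, and the same 9 scaffold genes again gave 0 higher and 2 lower, Shank1 and Homer2. The median log2 ratio of all counted genes was 0.125 against input and 0.169 against unbound RNA with the scaling used, and -0.0882 and -0.00641 when libraries were scaled to their totals alone, so small ratios are read against these medians.

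**Figure D2:**
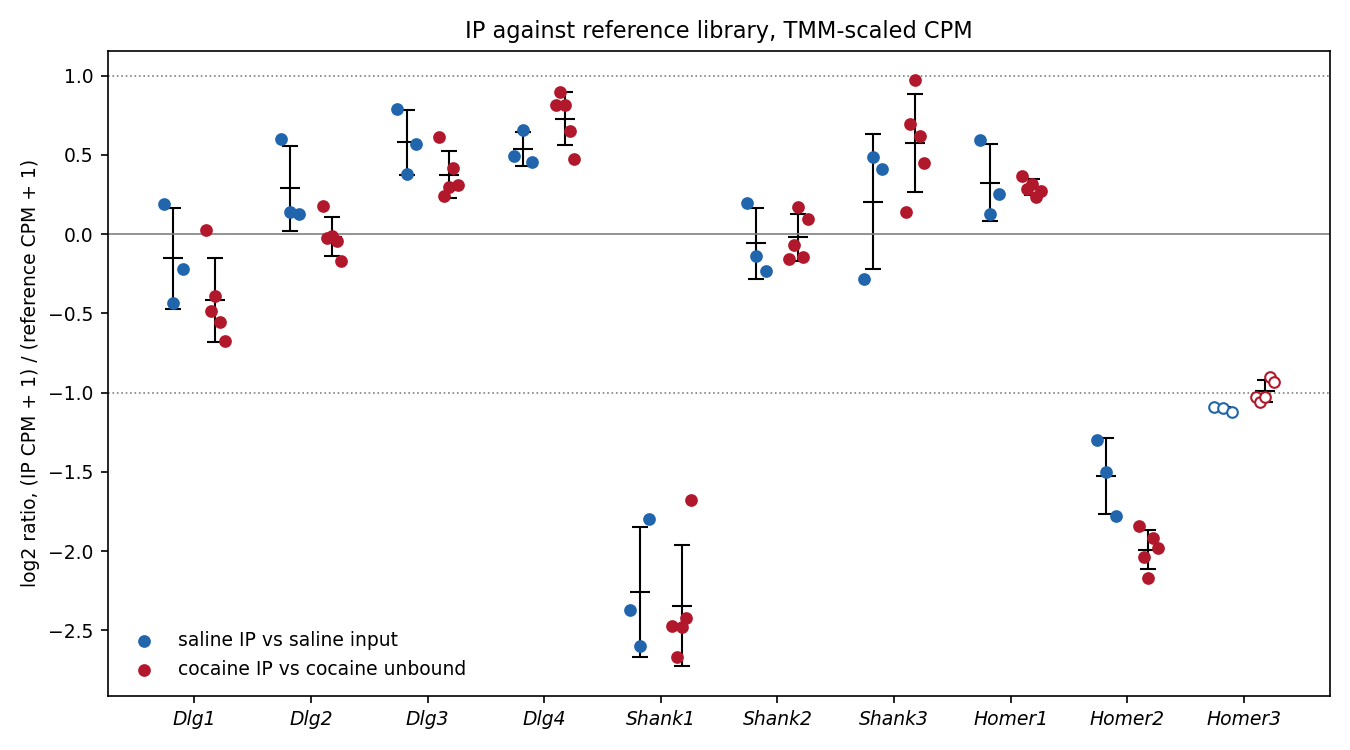
Log2 ratio of each IP library to its reference library for the 10 scaffold genes (vertical axis, scaled CPM plus 1). Blue points are saline IP against input, red points cocaine IP against unbound RNA, bars are the mean and SD, dotted lines mark 2-fold, and open points mark Homer3, which was not counted. Every Shank1 and Homer2 point lies below the lower dotted line.

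Among the Dlg genes, none was called in either comparison, and their mean log2 ratios ran from -0.15 to 0.58 against input and from -0.42 to 0.73 against unbound RNA. Dlg4 (chromosome 11, 70016942 to 70047522 on mm10), whose product is the most studied anchor of glutamate receptors in the postsynaptic density, had 614, 665 and 574 CPM in saline IP 1, 2 and 4 with an input level of 498.7 CPM. It had 620, 620, 598, 538 and 483 CPM in cocaine IP 1 to 5 and 392.9 CPM in the unbound library. All 8 IP libraries lay above the unbound library and 7 of 8 above the input. The mean log2 ratio of Dlg4 was 0.54 ± 0.11 for input (SD, n = 3) and 0.73 ± 0.17 for unbound RNA (SD, n = 5), larger than in 77.1% and 81.1% of counted genes.

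Dlg2 (chromosome 7, 90476672 to 92449247), a close relative of Dlg4 that also anchors receptors and potassium channels, had 959, 675 and 662 CPM in saline IP with an input level of 725.4 CPM. In cocaine IP it had 918, 756, 776, 764 and 711 CPM, with 905.7 CPM in the unbound library. IP and reference overlapped in both cases, and the mean log2 ratio of Dlg2 was 0.29 ± 0.27 for input (SD, n = 3) and -0.02 ± 0.12 for unbound RNA (SD, n = 5). Its sign followed the reference: saline IP against the unbound library gave -0.05 and cocaine IP against the input gave 0.32. Dlg3 (chromosome X, 100767722 to 100818410), a scaffold of NMDA receptors that is prominent early in development, had log2 ratios of 0.58 ± 0.21 to input (SD, n = 3) and 0.38 ± 0.15 to unbound RNA (SD, n = 5), above 0 in all 8 IP libraries. Dlg1 (chromosome 16, 31663443 to 31875129), which takes part in receptor trafficking and epithelial polarity, had the lowest ratios of the family, -0.15 ± 0.32 (SD, n = 3) and -0.42 ± 0.27 (SD, n = 5). Saline IP 1 and cocaine IP 1 were the libraries in which Dlg1 was highest, with 106 and 103 CPM against 61.8 to 75.8 CPM in the other 6. The same libraries had the lowest summed D2 MSN markers, 7960 and 6930 CPM against 9410 to 12200 CPM in the other 6. Whether this bears on Dlg1 was not tested.

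The Shank genes differed among themselves. Shank1 (chromosome 7, 44310253 to 44360572), which encodes a scaffold of dendritic spines, had 31.4, 25.7 and 45.1 CPM in saline IP 1, 2 and 4 with an input level of 190.2 CPM (95% Poisson interval 184 to 197, for counting error only). In cocaine IP 1 to 5 it had 41.3, 33.7, 39.4, 41.3 and 70.6 CPM, against 259.2 CPM in the unbound library (252 to 266). No IP library came near its reference, and cocaine IP 5 was the highest of the 8. Shank1 was 4.77-fold lower than input, with a mean log2 ratio of -2.25 ± 0.41 (SD, n = 3), and 5.08-fold lower than unbound RNA, with -2.34 ± 0.38 (SD, n = 5). Only 4.67% and 4.15% of counted genes had a lower ratio. With the references exchanged, the log2 ratio of Shank1 was -2.72 for saline IP against the unbound library and -1.89 for cocaine IP against the input.

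Shank3 (chromosome 15, 89499623 to 89560261), the Shank family member most closely tied to striatal synapses in mouse studies, had 80.1, 132 and 125 CPM in saline IP with an input level of 111.7 CPM. It had 88.6, 124, 153, 120.0 and 109 CPM in cocaine IP and 89.69 CPM in the unbound library. The input lay inside the range of the saline IP libraries, and the unbound library lay inside the lower end of the cocaine range, just above cocaine IP 1. The log2 ratio of Shank3 was 0.21 ± 0.43 (SD, n = 3) against input, which became -0.02 with scaling to library totals, and 0.57 ± 0.31 (SD, n = 5) against unbound RNA. Shank2 (chromosome 7, 144001928 to 144424494), which has the same domain plan, had between 25.3 and 36 CPM in the 8 IP libraries, 35.80 CPM in the input and 36.35 CPM in the unbound library. Its log2 ratios were -0.06 ± 0.23 to input (SD, n = 3) and -0.02 ± 0.15 to unbound RNA (SD, n = 5).

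Per exon length, the Homer genes ran from the third level in the order to the last. Homer1 (chromosome 13, 93299635 to 93405129) had 510, 357 and 385 CPM in saline IP 1, 2 and 4 with an input level of 386.4 CPM. It had 465, 415, 433, 411 and 429 CPM in cocaine IP and 401.4 CPM in the unbound library. These values lay close together apart from saline IP 1, and the log2 ratios were 0.33 ± 0.24 (SD, n = 3) and 0.30 ± 0.05 (SD, n = 5). Gene-level counts do not separate the short, activity-induced form of Homer1 from the long forms. Homer2 (chromosome 7, 81600481 to 81707527), which encodes a long coiled-coil Homer, had 18, 15 and 12.1 CPM in saline IP with an input level of 52.42 CPM (49.2 to 55.8). It had 22.6, 18.5, 17.1, 20.6 and 20.1 CPM in cocaine IP and 92.95 CPM in the unbound library (88.9 to 97.2). All 8 IP libraries lay far below either reference. Homer2 was 2.88-fold lower than input, with a log2 ratio of -1.53 ± 0.24 (SD, n = 3), and 3.97-fold lower than unbound RNA, with -1.99 ± 0.13 (SD, n = 5). The size of the Homer2 ratio followed the reference: saline IP against the unbound library gave -2.36 and cocaine IP against the input gave -1.17.

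Homer3 (chromosome 8, 70282827 to 70294361), the family member that is prominent in cerebellar Purkinje cells, was barely detected. It had 8, 7 and 6 reads in saline IP and 35 in the input, and 3, 2, 3, 5 and 4 reads in cocaine IP and 29 in the unbound library. It stayed under the 1 CPM mean and was not counted. Pooled over the libraries of a group, saline IP held 0.239 CPM, 0.126 times the input (95% counting interval 0.0694 to 0.222), and cocaine IP held 0.122 CPM, 0.0876 times the unbound level (0.0452 to 0.165). Of Homer3 exon bases, 25.41% are shared with Ddx49 on the opposite strand, and the strand setting of the counting is not given in the sources used here, so these few reads are uncertain.

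The promoters of Homer1 and Homer2 are shown because Homer2 was called lower than both references and Homer1 was not. The 250 bases before the first RefSeq start listed for each gene (build GRCm38.p6) were searched on both strands for TGACG, the core letters of the cyclic AMP response element, a motif chosen with these sequences in view. Capitals mark the motif. The Homer1 window is chr13:93303507-93303756 on the plus strand. The Homer2 stretch is chr7:81706945-81707175 on the minus strand, without the bases next to the start that lie in an annotated exon. The gene positions given above come from another annotation and start further upstream, at 93299635 for Homer1 and 81707527 for Homer2. Both windows therefore lie inside those gene positions.
Homer1: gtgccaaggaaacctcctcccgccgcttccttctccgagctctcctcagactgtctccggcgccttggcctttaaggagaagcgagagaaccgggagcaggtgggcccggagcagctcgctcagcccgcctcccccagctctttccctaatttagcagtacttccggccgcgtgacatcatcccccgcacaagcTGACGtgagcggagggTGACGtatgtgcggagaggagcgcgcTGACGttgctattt
Homer2: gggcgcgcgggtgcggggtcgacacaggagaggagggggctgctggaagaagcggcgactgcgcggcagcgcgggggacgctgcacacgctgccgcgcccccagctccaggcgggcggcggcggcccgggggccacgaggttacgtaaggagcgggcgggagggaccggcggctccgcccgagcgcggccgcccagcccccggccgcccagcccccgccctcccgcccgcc
The Homer1 window held 3 matches, starting at bases 195, 211 and 237 of the printed sequence and overlapping no other match, and the Homer2 window held 0. Of 32851 promoters in the table, 17.8% held at least 1 match and 0.69% held 3 or more. The cut of 3 equals the Homer1 count, and the motif was chosen with that sequence in view. The 0.69% therefore does not measure how unusual Homer1 is. The G and C content was 62.4% for Homer1 and 83.2% for Homer2, against a median of 52.4% over all promoters. Homer1 has a second listed start, and its window held no match. The second listed start of Homer2 had no match either. Of the 10 scaffold genes 8 had a promoter entry, and 3 had a match in a listed window: Homer1 (1 of 2 entries), Dlg3 (1 of 2 entries) and Dlg4 (1 of 3 entries). The 8 genes had 1 to 4 entries each, whereas 17.8% is a share of entries. The count of genes therefore cannot be set against that share. A match describes letters in a window and shows no binding.

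The make-up of each family was described by the share of each gene in its summed CPM per kb, and the Shank and Homer shares differed between fractions. Shank3 made up 57.9 to 74.3% of the Shank total in saline IP and 54.4 to 70.3% in cocaine IP, but 36.2% in the input and 25.8% in unbound RNA. Shank1 made up 12.6 to 21.2% and 15.8 to 30.9% in the IP groups, 53.9% in the input and 65.2% in unbound RNA. The leading Shank gene was thus Shank3 in all 8 IP libraries and Shank1 in both references. Homer1 made up 96 to 96.9% and 95.3 to 96.3% of the Homer total in the IP groups, 87.3% in the input and 81.2% in unbound RNA, and Homer2 took 11.2% and 17.8% of the references. In the Dlg family, Dlg4 held 31.8 to 41.8% in saline IP and 32.9 to 38.7% in cocaine IP, with 33.5% in the input, inside both IP ranges, and 25.3% in unbound RNA, below them. Dlg2 held 34.6 to 40.4% and 38.3 to 40% in the IP groups, 39.7% in the input and 47.5% in unbound RNA. Dlg1 held 5.1 to 6.75% and 5.21 to 6.73% in the IP groups, below 8.77% in the input and 8.95% in unbound RNA.

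**Figure D3:**
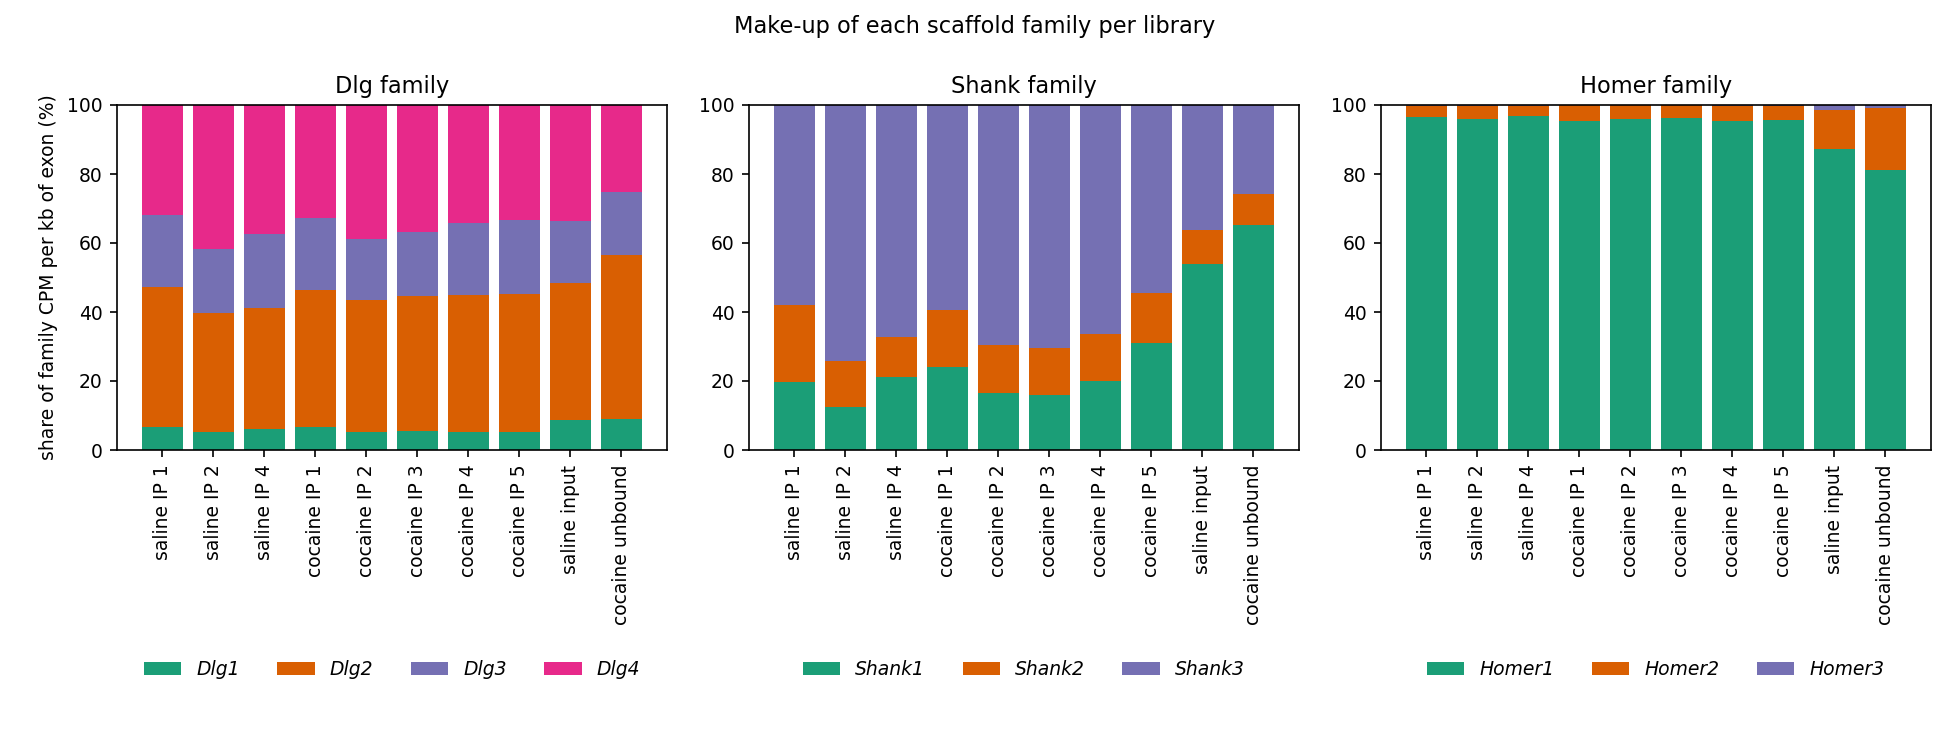
Share of each gene in the summed CPM per kb of exon of its family (vertical axis, percent), 1 stacked bar per library. In the Shank panel the largest block is Shank3 in the 8 IP libraries and Shank1 in the input and unbound bars.

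Markers of several other cell types were, like Shank1 and Homer2, lower in IP than in the references. The summed level of the 4 pallial glutamatergic neuron markers was 3.24 to 13.4 CPM in saline IP and 1.8 to 20.8 CPM in cocaine IP, against 133 CPM in the input and 181 CPM in unbound RNA. The 5 D1 MSN markers summed to 85.2 to 100 CPM in saline IP and 71 to 138 CPM in cocaine IP, against 792 and 605 CPM. The 4 GABA interneuron markers summed to 6.27 to 13.4 and 7.02 to 15.8 CPM, against 240 and 206 CPM, the 6 astrocyte markers to 44.4 to 144 and 79.8 to 145 CPM, against 1970 and 1820 CPM, and the 5 oligodendrocyte markers to 172 to 365 and 172 to 336 CPM, against 4300 and 4570 CPM. The 3 cholinergic interneuron markers were an exception against unbound RNA. They summed to 12.6 to 21.5 CPM in saline IP, against 41.7 CPM in the input, and to 12.8 to 29.4 CPM in cocaine IP, against 28.7 CPM in unbound RNA. No marker of these lists was at 0 in any library. Their part in the Shank1 and Homer2 ratios was not tested.

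Of 22 genes for proteins that bind or neighbour these scaffolds, 0 were called against input and 1 was called lower against unbound RNA. Their median log2 ratios were 0.37 and 0.45. The gene called was Dlgap1, which encodes an adaptor between Dlg and Shank proteins, with -1.46 ± 0.20 (SD, n = 5) against unbound RNA and -0.83 ± 0.21 (SD, n = 3) against input. The partner with the largest ratio to input was Agap2, a GTPase-activating protein that binds Homer, with 0.98 ± 0.28 (SD, n = 3). A further list held 21 receptor, channel and adhesion genes whose products the scaffolds bind, directly or through other proteins. Of these, 20 were counted and 0 were called in either comparison, with medians of 0.38 against input and 0.73 against unbound RNA. Gria4, an AMPA receptor subunit, had -1.01 ± 0.26 (SD, n = 3) against input, and Itpr1, an inositol trisphosphate receptor, had 0.67 ± 0.20 (SD, n = 3). Grin1, the obligatory NMDA receptor subunit, had 1.42 ± 0.45 (SD, n = 5) against unbound RNA, and Nlgn3, an adhesion molecule, had 1.22 ± 0.43 (SD, n = 5). None of these 4 passed 2-fold in every library.

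Among 8 genes of the enzymes that attach or remove palmitate on Dlg4 protein, 0 were called against input and 1, Abhd17a, a depalmitoylase, was higher than unbound RNA with 1.11 ± 0.15 (SD, n = 5). Their median log2 ratios were 0.06 and 0.16. The largest ratios to input were those of Zdhhc2, a palmitoyltransferase, with -0.58 ± 0.24 (SD, n = 3), and Abhd17a, with 0.58 ± 0.18 (SD, n = 3). The scaffold of inhibitory synapses served as a comparison list of 6 genes with medians of 0.44 and 0.42. Only Iqsec3, a gephyrin-binding exchange factor, was called among these 6, lower than input with -1.97 ± 0.36 (SD, n = 3) and lower than unbound RNA with -1.75 ± 0.31 (SD, n = 5). Of 10 activity-induced genes, 0 were called in either comparison, with medians of 0.49 and -0.07. The largest ratios were those of Junb and Egr1 for input, 1.09 ± 0.22 and 1.05 ± 0.30 (SD, n = 3), and of Fos and Egr1 for unbound RNA, -1.11 ± 0.81 and 0.96 ± 0.35 (SD, n = 5).

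Cocaine IP was compared with saline IP, the contrast at the centre of the design, with edgeR's quasi-likelihood test on the counts of all 13800 genes that passed the low-count filter. No scaffold gene passed the threshold. Of all genes tested, 0% passed an adjusted p of 0.05 and 2.14% (295) had an unadjusted p under 0.05, with 363 by DESeq2, which also called 0. Of the scaffold genes 9 were tested, all with an adjusted p of 0.9998 by edgeR, and 1, Homer2, had an unadjusted p under 0.05. Saline and cocaine libraries overlapped for all 9, whereas they did not overlap for 1.15% of genes with cocaine higher and 1.19% with cocaine lower.

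Homer2 had the smallest p of the scaffold genes. Its scaled level was 14.9 ± 2.67 CPM after saline (SD, n = 3) and 19.8 ± 1.79 CPM after cocaine (SD, n = 5). The log2 fold change was 0.41 (SE 0.15, 95% interval 0.09 to 0.73, n = 8), with an unadjusted p of 0.0168 and an adjusted p of 0.9998 by edgeR's quasi-likelihood test, and it ranked 65 of 13800 genes by p. Libraries that share a number differed the same way in 3 of 3 cases: scaled Homer2 was 17.5 and 22.3 CPM for number 1, 15.1 and 18.8 CPM for number 2, and 12.2 and 20.5 CPM for number 4, saline first. Dlg3 also had the same sign in 3 of 3 such cases, with log2 differences of -0.04, -0.03 and -0.04. The share of all genes with the same sign in all 3 cases is not given here, so this agreement does not set Homer2 apart. Lane 6 is the only lane with both treatments, 1 saline and 2 cocaine libraries, so a fit with lane as a covariate (log2 fold change of Homer2 0.75) and a fit to lane 6 alone (0.74) both rest on saline IP 4, which had the lowest Homer2 level. Without saline IP 4 the log2 fold change was 0.27 (unadjusted p = 0.107 by edgeR), and without the 3 lane 4 libraries it was 0.45 (unadjusted p = 0.0588 by edgeR). With the replicate number as a block, over numbers 1, 2 and 4, the log2 fold change was 0.46 (unadjusted p = 0.00177, adjusted p = 0.539 by edgeR). The unadjusted p stayed under 0.05 in 15 of 17 alternatives run, and the adjusted p was 0.539 to 1.0. The alternatives refit the same 8 libraries or parts of them, so this tally is not independent support. Both IP groups remained below the input level of Homer2. Within each group Homer2 was highest in number 1, with 18 CPM in saline IP and 22.6 CPM in cocaine IP on library totals. The number 1 libraries also had the lowest summed D2 MSN markers, 7960 and 6930 CPM. The part of other cell types in the Homer2 value was not tested.

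Shank1 had a scaled level of 34 ± 10.3 CPM after saline (SD, n = 3) and 45.3 ± 14.1 CPM after cocaine (SD, n = 5). Its log2 fold change was 0.41 (SE 0.24, 95% interval -0.12 to 0.94), unadjusted p = 0.114 by edgeR. Its value turned on single libraries: it was 0.19 without cocaine IP 5 and 0.67 without saline IP 4 (unadjusted p = 0.0244 by edgeR). With lane as a covariate it was -0.28, and within lane 6 it was -0.29, but both values rest on saline IP 4, which had the highest Shank1 level of the saline libraries, so lane and this library cannot be told apart. Cocaine IP 5 also had the highest summed D1 MSN markers of the IP libraries, 138 CPM. Its pallial glutamatergic neuron markers summed to 14.5 CPM, below the 16.9, 20.8 and 16.6 CPM of cocaine IP 1, 2 and 4, and cocaine IP 3 had 1.8 CPM with a Shank1 level of 39.4 CPM. Across the groups, the 4 pallial markers had log2 fold changes of 0.62 to 1.25 for cocaine minus saline, and 0 of 4 passed the test. The part of these markers in the Shank1 and Homer2 values was not tested.

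The other 7 scaffold genes had log2 fold changes between -0.13 and 0.10. Dlg4 had -0.10 (SE 0.12, 95% interval -0.36 to 0.16), Dlg2 had 0.05 (SE 0.14, -0.25 to 0.35), Dlg3 had -0.08 (SE 0.13, -0.36 to 0.20) and Dlg1 had -0.13 (SE 0.18, -0.53 to 0.27). Shank3 had 0.09 (SE 0.20, -0.36 to 0.53), Shank2 had 0.10 (SE 0.14, -0.21 to 0.41) and Homer1 had 0.06 (SE 0.12, -0.20 to 0.32). As linear folds these intervals leave room for a Dlg4 ratio of 0.78 to 1.12, a Homer1 ratio of 0.868 to 1.25 and a Shank3 ratio of 0.781 to 1.45. They are not limits of detection, since calls rested on p-values adjusted over all genes tested. Homer3 did not pass the low-count filter, with 21 reads in the 3 saline and 17 in the 5 cocaine IP libraries, and gave -0.91 when no filter was used (unadjusted p = 0.226 by edgeR).

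**Figure D4:**
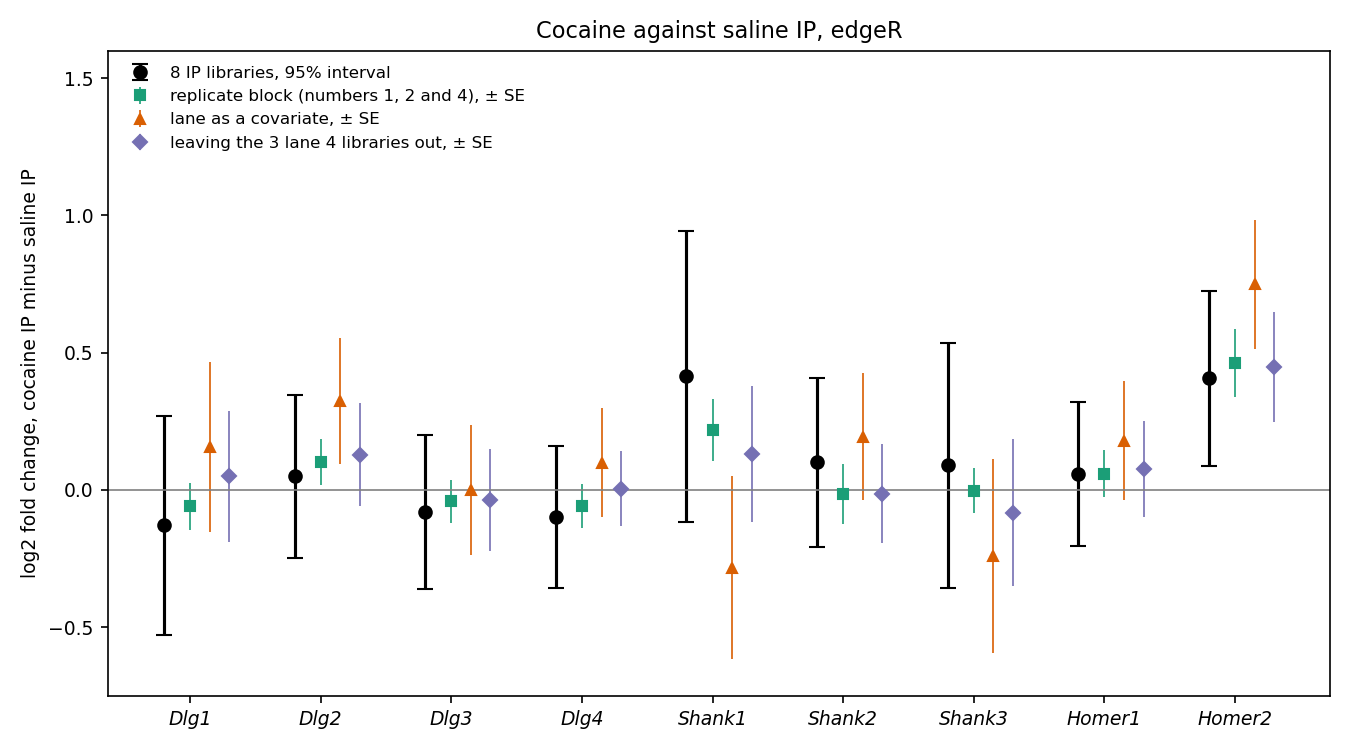
Log2 fold change of cocaine IP minus saline IP for the 9 scaffold genes tested (vertical axis). Black points are the fit to 8 IP libraries with 95% intervals, and coloured points, with SE bars, are fits with the replicate number as a block, with lane as a covariate, and without the 3 lane 4 libraries. Black intervals cross 0 for all genes except Homer2, and all Homer2 points lie above 0.

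The lanes were not balanced: saline IP 1 and 2 ran in lane 7, saline IP 4 with cocaine IP 1 and 2 in lane 6, and cocaine IP 3, 4 and 5 in lane 4. Lane 4 was therefore set against lane 6 within the cocaine group, and 0% of 13746 genes and 0 of 9 scaffold genes passed an adjusted p of 0.05 by edgeR, whereas DESeq2 called 7 genes. Without cocaine IP 2, edgeR called 407 genes, of which none was a scaffold gene, but lane 6 is then 1 library, assumed to vary like those of lane 4. The largest scaffold gene difference was that of Shank1, with 37.5 scaled CPM in lane 6 and 50.5 in lane 4, a log2 difference of 0.43 (SE 0.25, adjusted p = 0.863 by edgeR), which was 0.12 without cocaine IP 5, where it was no longer the largest. Homer2 differed by -0.09 (SE 0.16) between these lanes and Homer1 by -0.05 (SE 0.12).

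No listed gene around the scaffold passed the threshold between cocaine and saline IP either. Of the 22 partners, 20 receptors and channels, 8 palmitoylation genes and 6 inhibitory scaffold genes tested, 0 passed by edgeR, and their median log2 fold changes were -0.04, 0.10, 0.12 and 0.03, against 0.01 for all genes. Among the partners the smallest p values were those of Dbn1, an actin-binding spine protein, with -0.35 (SE 0.13, unadjusted p = 0.0174 by edgeR), and Dynll2, a dynein light chain, with -0.30 (SE 0.20, unadjusted p = 0.154 by edgeR). Among the receptors they were those of the AMPA receptor subunits Gria4, with 0.31 (SE 0.17, unadjusted p = 0.09 by edgeR), and Gria2, with 0.33 (SE 0.22, unadjusted p = 0.166 by edgeR). Abhd17a had -0.23 (SE 0.13) and the palmitoyltransferase gene Zdhhc5 had 0.28 (SE 0.20). Iqsec3 had 0.34 (SE 0.22) and Slitrk3, an adhesion molecule of inhibitory synapses, had 0.10 (SE 0.22). The 10 activity-induced genes, a list that bears on the short Homer1 form, had a median of -0.43, with values from -0.99 to -0.12, and 0 of 10 passed. Junb had -0.47 (SE 0.20, unadjusted p = 0.0385 by edgeR) and Egr4 had -0.38 (SE 0.17, unadjusted p = 0.0499 by edgeR), both transcription factor genes. Homer1 as a whole gene, with 0.06, lay outside the range of that list. Its counts do not separate the short form, so they do not show whether that form followed the list.

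The genes with levels most like those of Dlg4, Shank3 and Homer1 were found from centred log2 (CPM + 1) over the 10 libraries, among the 9983 genes whose mean reached 5 CPM. Closest to Dlg4 were Kcng1, Fam122a and Sap30bp, with root mean square differences of 0.0565, 0.0583 and 0.0649. Closest to Shank3 were Txndc16, Hdac5 and Slitrk5, with 0.0768, 0.0921 and 0.0952. Closest to Homer1 were Ogfod1, Srsf2 and Snx27, with 0.0607, 0.0669 and 0.067. These libraries share lanes and fractions, and with so many genes compared some lie this close without any link.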

How the data were processed

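The files hold raw read counts per gene symbol, deposited by the authors as 1 table per library. The tools named in the submitters' processing notes are STAR 2.0.0e and HTSeq, with the build mm10. Neither the annotation nor the strand setting is given in the sources used here. Per the labels' protocols, tagged polysomes were immunopurified with antibodies to EGFP on Protein L magnetic beads. Titles of the samples gave group and replicate number, and their descriptions gave the lane.

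HTSeq's special counters stayed out of library sizes and tests: reads in no feature were 12.94 to 14.4% in IP, 25.5% in the input and 27.37% in unbound RNA, and ambiguous reads 3.42 to 3.95%, 7.33% and 7.34%. In the IP libraries 3 reads equal 0.0948 to 0.1306 CPM. Intervals on counts cover counting error only. No IP library was a copy of another in its group, since counts within a group differed beyond sampling noise (chi-square per degree of freedom of at least 21.49). Libraries of different groups were not compared in this way.

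Cocaine was tested against saline IP with edgeR 4.0.16 in R 4.3.3 (quasi-likelihood test, two-sided, TMM scaling, filterByExpr, Benjamini-Hochberg adjustment over all genes), with DESeq2 1.42.0 as an alternative. The common biological coefficient of variation was 0.199. IP ratios are log2 of TMM-scaled CPM plus 1. Lengths and positions are from GENCODE M21 on GRCm38, the assembly of mm10. Exons of 5 of the 10 scaffold genes share bases with another gene: Homer3 (25.41%), Homer2 (4.16%), Shank1 (3.22%), Shank3 (2.95%) and Dlg2 (under 1% with each of its neighbours). The steps were tested on simulated counts.

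The scaffold genes and all lists were chosen with earlier results of these data known. Text names all 10 scaffold genes, and from each list up to 4 genes per comparison: those called, otherwise the 2 with the smallest unadjusted p (cocaine against saline) or the 2 largest ratios. It adds the 3 genes most like Dlg4, Shank3 and Homer1. Alternatives were another scaling, prior, low-value filter, reference library, tool, lane handling, replicate block and leaving out each library.

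The saline and cocaine IP groups share numbers 1, 2 and 4. Same-numbered libraries' deviations from their group mean correlated at 0.709, 0.628 and 0.321 over the 9618 genes whose mean reached 5 CPM, so the numbers were taken to pair the libraries, although what a number marks is not stated in the labels. The main cocaine test left the number out, and the fit with the number as a block was an alternative.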

Additional observations from a re-analysis of the deposited data

Results flagged for a closer look

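In groups of 4 to 10 libraries, a value was picked out when its gap to the nearest other, divided by the range of the group, passed Dixon's critical value. This gave 3 of 29 groups tested, where chance gives about 1 in 20 for independent groups. The groups here reuse the same libraries, and both Shank1 values below come from cocaine IP 5. The count therefore cannot be set against that rate. Shank1 stood at 70.6 CPM in cocaine IP 5, with the next library at 41.3 CPM. The log2 ratio of Shank1 to unbound RNA was accordingly -1.68 in cocaine IP 5, with the next at -2.42. Without that library the cocaine minus saline log2 fold change of Shank1 was 0.19 in place of 0.41, and the mean log2 ratio to unbound RNA was -2.52 in place of -2.34. Dlg1 made up 6.73% of the Dlg family in cocaine IP 1, with the next library at 5.64%, and saline IP 1 held a like share of 6.75%.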

How the results depend on the processing

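Shank1 and Homer2 were the scaffold genes called lower than the reference under all alternatives run in both ratio comparisons, joined against input by Homer3 when no low-value filter was used, and 0 were called higher. Counts of all genes moved more. Against input, genes called higher (211) became 70 with library totals, 125 with a prior of 5 CPM, 768 against the unbound library and 325 to 377 without 1 library. Genes called lower (1495) became 781 with that prior and 660 at a mean of at least 5 CPM. Against unbound RNA, genes called higher (478) became 247, 294 and, against the input, 137, and genes called lower (1231) became 756 with the prior, 556 at 5 CPM and 1891 with no filter. With the longest coding transcript as length, 10 of 20 family shares moved by more than 1 SD, for example Dlg3 to 12.8% from 20.4% in saline IP.

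In cocaine against saline IP, 0 scaffold genes passed an adjusted p of 0.05 under all 17 alternatives. The replicate block over numbers 1, 2 and 4 left 0 genes past an adjusted p (smallest 0.0599) and 903 at an unadjusted p under 0.05, against 141 in the same 6 libraries without it, and changed no call. Homer2 was 0.46 (SE 0.12) under the block, and positive in 17 of 17 alternatives (0.27 to 0.75), with an unadjusted p under 0.05 in 15. All alternatives reuse the same libraries, so these tallies are not independent support. Signs of small changes turned. Shank2 and Shank3 became -0.0154 and -0.00246 with the block and -0.0254 and -0.0213 in the same libraries without it. With lane as a covariate Dlg1, Dlg3 and Dlg4 became 0.155, 0.000282 and 0.0996, and Shank1 and Shank3 -0.283 and -0.242. Leaving the 3 lane 4 libraries out gave 0.0487 for Dlg1, 0.00444 for Dlg4, -0.0137 for Shank2 and -0.083 for Shank3. Lane 6 alone gave 0.145, 0.0923, -0.291 and -0.248 for Dlg1, Dlg4, Shank1 and Shank3. Leaving out 1 library at a time gave -0.277 to 0.0541 for Dlg1, -0.0456 to 0.21 for Dlg2, -0.176 to 0.0203 for Dlg3, -0.00129 to 0.231 for Shank2, -0.132 to 0.229 for Shank3 and -0.0359 to 0.194 for Homer1. Lane as a covariate and lane 6 alone compare the same 1 saline with 2 cocaine libraries. Between lanes 4 and 6 the count of genes was 7 by DESeq2 and 0 to 407 without 1 library, and Dlg3, Homer1, Homer2 and Shank1 ranged over -0.277 to 0.116, -0.0987 to 0.00616, -0.195 to 0.0309 and 0.118 to 0.573. The causes of these turns were not tested. Depth limits Homer3 alone among the scaffold genes.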
